A study of Mus musculus with 8 samples.

Results

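Aminoacyl-tRNA synthetases are the enzymes that attach each amino acid to its transfer RNA before translation. Of the 55385 genes in the count table, 36 were picked by symbol as synthetase genes. The rule uses no measured value, but earlier results of these data were known when it was chosen. Of these, 18 encode enzymes of the cytosol and 16 encode enzymes of the mitochondrial matrix. Gars and Kars, for glycine and lysine, make the enzyme of both compartments from 1 gene. The mRNAs were measured in mouse oocytes grown in culture from 2 lines of XX embryonic stem cells on a C57BL/6 x 129/SvJ background, one of them sex-converted (XX cells derived from male cells, per the study's title) and the other native (named XX in the labels with no conversion). Each line gave matured eggs at metaphase II (MII) and fully grown oocytes at the germinal vesicle stage (GV), with 2 libraries in each of the 4 groups. All groups carried the Blimp1-mVenus and Stella-ECFP reporters, and all germ cells had been aggregated with female gonadal somatic cells of embryonic day 12.5 and grown until day 11 of growth culture. MII eggs had in addition 16 hours of maturation culture with FSH, EGF and hCG, while GV oocytes were freed of cumulus cells in dibutyryl-cAMP and IBMX, which hold meiotic arrest. Each library was a pool, of 35 to 58 eggs at MII or 31 to 158 oocytes at GV, from which polyadenylated RNA was taken.

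Cytosolic synthetases charge the tRNAs that translate nuclear mRNAs, and 8 of the enzymes (Dars, Eprs, Iars, Kars, Lars, Mars, Qars and Rars) sit together with the scaffold proteins Aimp1, Aimp2 and Eef1e1 in the multisynthetase complex. The mitochondrial set is imported and serves only the proteins that mitochondrial DNA encodes. A GV oocyte stores mRNA that it made during growth, transcription is silent through maturation, and stored mRNAs are then either degraded or lengthened at the poly(A) tail and translated. Because the libraries were made from poly(A)-selected RNA, a change in tail length and a change in mRNA amount cannot be told apart here. In bulk pools, fewer cells of a kind and less RNA per cell cannot be told apart either.

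The libraries held 10306471 to 14999003 counted reads. Correlations of log expression were 0.961 to 0.981 between libraries of the same stage and 0.759 to 0.796 between stages. Levels are given as CPM, counts as a rate of the library total scaled by TMM (trimmed mean of M-values) factors, which were 0.714 to 0.733 at MII and 1.33 to 1.43 at GV. With them the median gene of the 14929 tested changed by -0.345 (sex-converted) and -0.307 (native) on the log2 scale, MII over GV, and changes of members read against that median. Scaling by library totals alone, without TMM, gave medians of -1.28 and -1.22. All 12 oocyte markers were detected in each library, with Gdf9 the highest. Markers of granulosa and cumulus cells summed to 118.3 to 165.9 CPM over 16 genes at MII and 56.1 to 78.5 CPM at GV, with 2 to 7 of them at 0 at MII and 2 to 6 at GV, and Amh or Foxl2 at 0 in each library. Among them Cyp19a1 had the most reads in each MII library (429 to 665) and Nr5a2 in each GV library (445 to 851). Stromal markers summed to 13.8 to 71.6 CPM at MII and 1.11 to 1.41 CPM at GV, with Col1a2 and Lum at 0 in each of the 8 libraries. The stromal marker with the most reads at MII was Thbs1 in native replicate 1 (418 reads). It was Spp1 in native replicate 2 (53) and in sex-converted replicates 1 and 2 (313 and 107). At GV no stromal marker had more than 15 reads. Endothelial and blood markers, of which Pecam1 had the most reads in each library, summed to 206.9 to 291.9 CPM at MII and 77.6 to 114.8 CPM at GV. The median of these 8 markers was only 0.955 to 1.48 CPM at MII and 0.0596 to 0.739 CPM at GV, and Hba-a1 was at 0 in each library. Pluripotency markers summed to 193.1 to 231.2 CPM at MII and 161.3 to 260.0 CPM at GV. Pou5f1 had the most reads of them, except in sex-converted GV replicate 1 (Esrrb), and Nanog was at 0 except in native GV replicate 1. The part of any such cells in the results was not tested.

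At MII the synthetase mRNAs were mostly lower than at GV, and the drop reached more than 10-fold for enzymes of both compartments. In sex-converted oocytes 21 of the 34 tested members were lower and 6 were higher, against 36.2% lower and 29.3% higher of all tested genes, at a Benjamini-Hochberg adjusted p under 0.05 in edgeR's quasi-likelihood test. In native oocytes 19 were lower and 6 were higher, against 35.7% and 29.6% of all tested genes. The median log2 fold change of the members was -1.78 in the sex-converted line and -1.62 in the native line. The same 19 genes were lower in both lines (32% of all tested genes were), 5 were higher in both (26.9% of all tested genes), 4 were called in 1 line only and 6 in neither. All MII libraries lay below all GV libraries of the same line for 22 members in both lines (42.1% of all tested genes), all lay above for 8 (33.9% of all tested genes), and the other 4 overlapped or were mixed. A log2 fold change below -3, an 8-fold drop, was seen in 14 members in the sex-converted line and 11 in the native line, against 15.7% and 14.9% of all tested genes. Under scaling by library totals alone 25 members were lower in each line, and 0 were higher in the sex-converted line and 1 in the native line, against 52.1% lower and 15.9% higher of all tested genes in the sex-converted line and 51% and 16.7% in the native line.

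**Figure D1:**
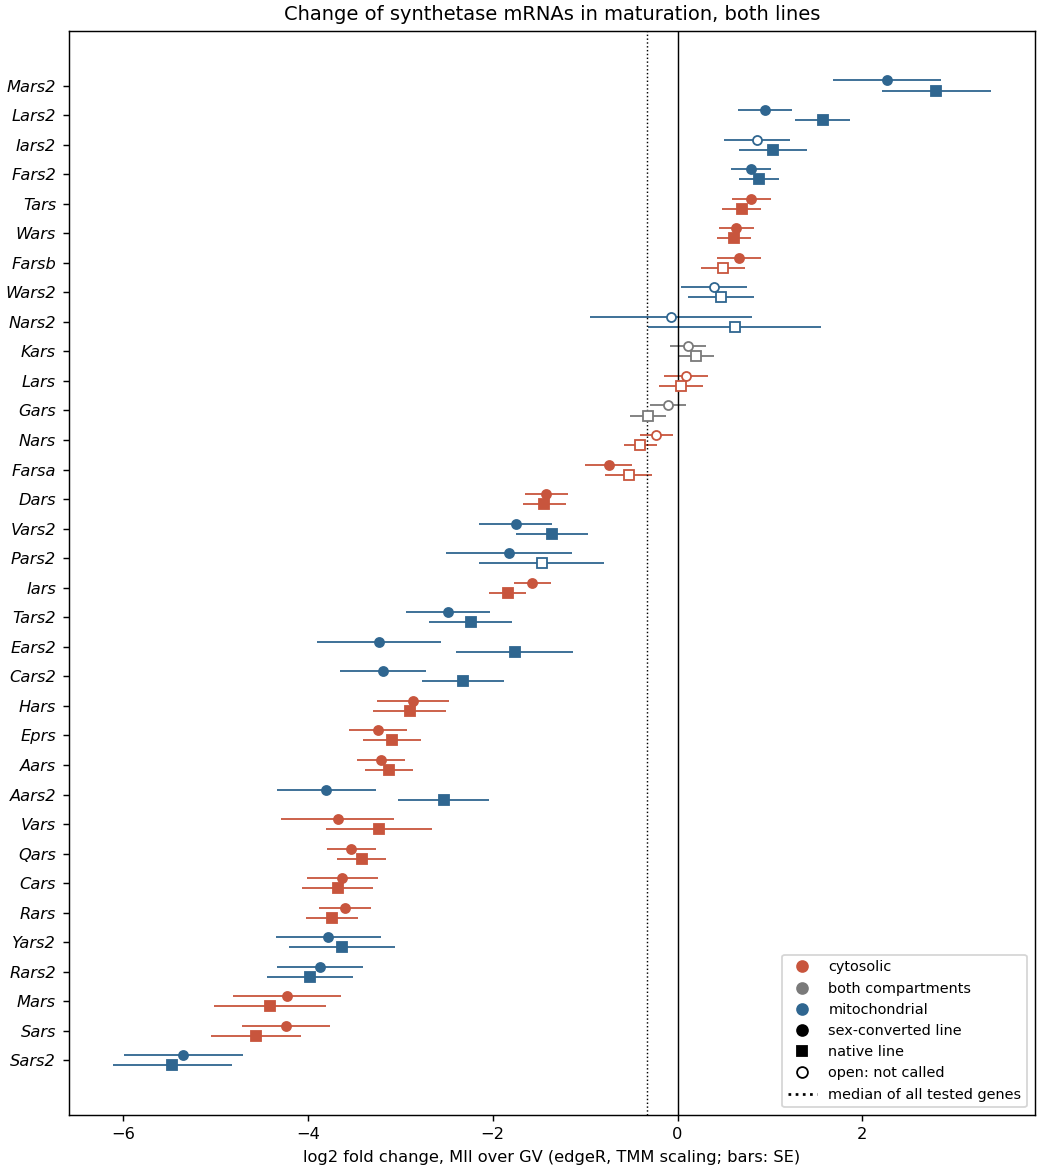
Log2 fold change of MII over GV for the 34 tested synthetase mRNAs (x axis) by gene (y axis), with circles for the sex-converted and squares for the native line, bars for the standard error and open symbols for changes that were not called; the dotted line is the median of all tested genes. Most genes lie left of 0. By mean change, those called lower in both lines run from Sars2 at -5.35 and -5.47 to Dars at -1.42 and -1.44. Mars2 stands farthest to the right at 2.27 and 2.80.

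Among cytosolic enzymes, 12 of 17 tested were lower and 3 higher in the sex-converted line, with a median log2 fold change of -2.86, and 11 were lower and 2 higher in the native line, with a median of -2.90. The shares of all tested genes were 36.2% lower and 29.3% higher (sex-converted) and 35.7% and 29.6% (native). The seryl-tRNA synthetase gene Sars lies on chromosome 3 from 108424865 to 108445209, minus strand. It had 2.08 and 7.04 CPM in sex-converted MII eggs, against 90.1 and 84.6 CPM in sex-converted GV oocytes. In the native line Sars had 5.25 and 2.31 CPM at MII, against 88.0 and 94.2 CPM at GV. The 4 MII values were far below the 4 GV values, and the MII replicates of each line differed by more than 2-fold. The log2 fold changes of Sars were -4.24 (SE 0.474, adjusted p = 1.72e-05) and -4.56 (SE 0.485, adjusted p = 1.2e-05). The MII replicates set its size, which ran over the libraries left out in turn from -5.39 (without sex-converted MII replicate 2) to -3.64 (without sex-converted MII replicate 1), and in the native line reached -5.30 without native MII replicate 1.

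Mars, which charges methionine on both initiator and elongator tRNA of the cytosol, lies on chromosome 10 from 127296221 to 127311786, minus strand. It had 1.64 and 0.38 CPM in sex-converted MII eggs, against 22.4 and 14.8 CPM in sex-converted GV oocytes, and 1.15 and 0.347 CPM in native MII eggs, against 14.6 and 18.6 CPM in native GV oocytes. No MII library of Mars came near a GV library. Its log2 fold changes were -4.23 (SE 0.585, adjusted p = 8.02e-05) in the sex-converted line and -4.41 (SE 0.604, adjusted p = 7.39e-05) in the native line. They were -5.58 without sex-converted MII replicate 1, -3.49 without sex-converted MII replicate 2 and -5.55 without native MII replicate 1. Mars overlaps Ddit3, a stress transcription factor gene on the opposite strand, by 68 bases. No source used here says whether counting used the strand, so reads in that stretch cannot be told apart. Ddit3 was also lower at MII, with log2 fold changes of -4.63 and -3.28 in the sex-converted and native lines.

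Rars, the arginine enzyme of the complex (chromosome 11 from 35808381 to 35834506, minus strand), was among the most abundant synthetase mRNAs at GV. It had 15.1 and 9.99 CPM in sex-converted MII eggs, against 146.4 and 156.3 CPM in sex-converted GV oocytes. In the native line it had 15.4 and 10.2 CPM at MII, against 183.8 and 160.1 CPM at GV. The replicates of a stage differed little beside the gap between stages, and the log2 fold changes were -3.60 (SE 0.28, adjusted p = 1.6e-06) and -3.74 (SE 0.281, adjusted p = 1.31e-06). The glutamine enzyme Qars had 19.8 to 34.4 CPM over the 4 MII libraries, against 265.7 to 295.3 CPM over the 4 GV libraries. Its log2 fold changes were -3.53 and -3.42.

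Eprs, which carries the glutamate and proline enzymes in 1 fused protein, lies on chromosome 1 from 185363044 to 185428360, plus strand. Sex-converted MII eggs had 7.99 and 7.32 CPM of Eprs, against 68.7 and 75.7 CPM in sex-converted GV oocytes. In native oocytes it had 13.3 and 7.06 CPM at MII, against 99.4 and 74.6 CPM at GV. The drop was 9.43-fold in the sex-converted line (log2 fold change -3.24, SE 0.317, adjusted p = 6.98e-06) and 8.5-fold in the native line (log2 fold change -3.09, SE 0.312, adjusted p = 8.56e-06).

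The multisynthetase complex was split. In each line 6 of its 8 synthetase mRNAs were lower at MII and none was higher. The shares of all tested genes were 36.2% lower and 29.3% higher (sex-converted) and 35.7% and 29.6% (native). The medians of the 8 were -2.40 and -2.46, while Lars and Kars were called in neither line. Iars and Dars, the isoleucine and aspartate enzymes, fell less than the other 4, by 1.57 and 1.84 (Iars) and by 1.42 and 1.44 (Dars) on the log2 scale. Lars, the leucine enzyme, had log2 fold changes of 0.0953 and 0.0379, and 95% intervals that spanned -0.431 to 0.622 (sex-converted) and -0.489 to 0.565 (native). Among the 11 tested cytosolic or dual synthetases outside the complex, 6 were lower and 3 higher in the sex-converted line and 5 were lower and 2 higher in the native line. The native share of lower genes there, 45.5%, was near the 35.7% of all tested genes. The other lower cytosolic genes outside the complex were Cars (cysteine, -3.63 and -3.68), Vars (valine, -3.68 and -3.23), Aars (alanine, -3.21 and -3.12) and Hars (histidine, -2.86 and -2.90). The asparagine enzyme Nars was called in neither line, at 143.7 and 147.4 CPM in sex-converted MII eggs against 178.1 and 163.6 CPM at GV, and 142.4 and 117.3 CPM in native MII eggs against 164.8 and 178.8 CPM at GV. Scaled by library totals alone, Nars was lower in both lines (-1.17 and -1.32) and so was Lars, and in the native line Nars was also lower where a mean of at least 50 reads was asked for (-0.479, adjusted p = 0.0245). Without native MII replicate 1, Cars was at -4.36 in the native line.

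Gars and Kars, the synthetases shared by both compartments, had similar values at both stages, and neither was called. Kars (chromosome 8 from 111993443 to 112011323, minus strand) had 83.3 and 95.8 CPM in sex-converted MII eggs, against 76.4 and 89.1 CPM in sex-converted GV oocytes. In the native line Kars had 98.7 and 91.0 CPM at MII, against 82.6 and 82.5 CPM at GV. Its log2 fold changes were 0.114 (SE 0.193, adjusted p = 0.619) and 0.200 (SE 0.193, adjusted p = 0.377). Gars (chromosome 6 from 55038007 to 55079500, plus strand) had 79.9 and 80.5 CPM in sex-converted MII eggs, against 78.7 and 93.6 CPM in sex-converted GV oocytes. Native MII eggs had 84.7 and 74.5 CPM of Gars, against 103.5 and 95.2 CPM in native GV oocytes. Its log2 fold changes were -0.104 (SE 0.194, adjusted p = 0.652) and -0.319 (SE 0.194, adjusted p = 0.169). The 95% intervals of both genes lay within 2-fold in both lines. Scaled by library totals alone both were called lower in both lines, at -0.82 and -0.711 for Kars and -1.04 and -1.23 for Gars.

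The phenylalanine enzyme of the cytosol is built from 2 kinds of subunit, and in the sex-converted line their mRNAs moved in opposite directions. Farsa, the alpha subunit (chromosome 8 from 84856989 to 84869257, plus strand), had 34.0 and 33.9 CPM in sex-converted MII eggs, against 61.6 and 52.1 CPM in sex-converted GV oocytes. The native line had 45.5 and 28.6 CPM at MII, against 49.8 and 57.4 CPM at GV. Farsb, the beta subunit (chromosome 1 from 78417975 to 78488897, minus strand), had 182.4 and 244.0 CPM in sex-converted MII eggs, against 116.0 and 152.4 CPM in sex-converted GV oocytes. Native MII eggs had 231.8 and 199.3 CPM of Farsb, against 181.7 and 124.8 CPM in native GV oocytes. In the sex-converted line both changes were called, at -0.744 for Farsa (SE 0.255, adjusted p = 0.0241) and 0.668 for Farsb (SE 0.24, adjusted p = 0.0293). In the native line neither was, at -0.529 for Farsa (SE 0.255, adjusted p = 0.0884) and 0.492 for Farsb (SE 0.239, adjusted p = 0.0915). The sex-converted calls were lost without sex-converted GV replicate 1 for both genes, without either sex-converted MII replicate for Farsa and without sex-converted MII replicate 2 for Farsb, and with library totals alone Farsb was at -0.265 and -0.415. Among native oocytes Farsa was called lower without native MII replicate 1 (-0.918, adjusted p = 0.0214), where a mean of at least 50 reads was asked for (-0.606, adjusted p = 0.0481) and with library totals alone (-1.45, adjusted p = 0.000599). Native Farsb was called higher without native GV replicate 1 (adjusted p = 0.0184). Farsb overlaps Sgpp2 on the opposite strand by 2315 bases.

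**Figure D2:**
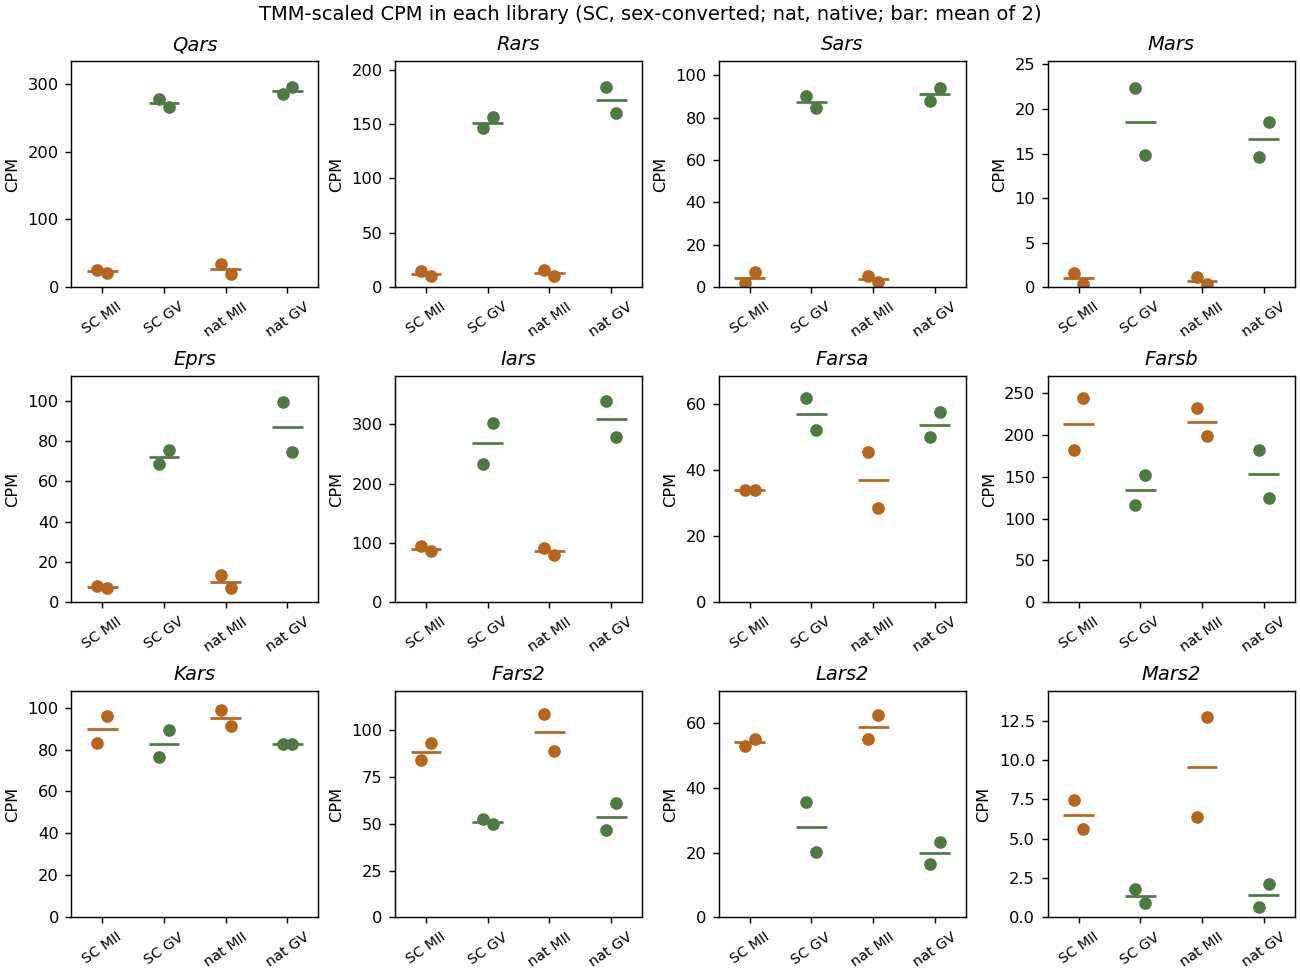
TMM-scaled CPM (y axis, from 0) of 12 synthetase mRNAs in each of the 8 libraries, with groups on the x axis and a bar at the mean of 2. Qars, Rars, Sars, Mars, Eprs and Iars have low MII and high GV points in both lines, Kars has points of like height at both stages, and Fars2, Lars2 and Mars2 have the higher points at MII.

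Mitochondrial enzymes spread over a wider range than the cytosolic ones. In the sex-converted line 9 of 15 tested were lower and 3 higher, with a median log2 fold change of -1.82, and in the native line 8 were lower and 4 higher, with a median of -1.47. The shares of all tested genes were 36.2% lower and 29.3% higher (sex-converted) and 35.7% and 29.6% (native). The higher counts of this compartment were thus not above the share of all genes. Sars2, the mitochondrial serine enzyme (chromosome 7 from 28741992 to 28753871, plus strand), had 0.219 and 0.0951 CPM in sex-converted MII eggs, against 8.46 and 4.77 CPM in sex-converted GV oocytes. In native oocytes it had 0.0955 and 0.231 CPM at MII, against 7.02 and 7.74 CPM at GV. It had the largest fall of all members, with fitted log2 fold changes of -5.35 (SE 0.644, adjusted p = 2.91e-05) and -5.47 (SE 0.644, adjusted p = 2.46e-05). The MII values rest on 3 reads in each line, against 240 and 236 reads at GV. By counts alone the GV level was 42.1 times the MII level in the sex-converted line (95% interval 14.2 to 205.8) and 46.7 times in the native line (15.8 to 228.3), which covers counting error only. Without sex-converted MII replicate 1 the fitted value was -5.99, and without native MII replicate 2 it was -6.17.

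Rars2 and Yars2, the mitochondrial arginine and tyrosine enzymes, had the next largest falls of this compartment. Rars2 (chromosome 4 from 34614957 to 34660167, plus strand) had 1.09 and 1.52 CPM in sex-converted MII eggs, against 17.5 and 21.1 CPM in sex-converted GV oocytes, and 1.91 and 0.579 CPM in native MII eggs, against 23.2 and 17.4 CPM in native GV oocytes. Its log2 fold changes were -3.87 (SE 0.464, adjusted p = 2.84e-05) and -3.98 (SE 0.467, adjusted p = 2.41e-05), the second of which was -5.12 without native MII replicate 1. Yars2 (chromosome 16 from 16302965 to 16309640, plus strand) had 0.328 and 0.666 CPM in sex-converted MII eggs, against 8.82 and 5.36 CPM in sex-converted GV oocytes. In native oocytes it had 0.286 and 0.694 CPM at MII, against 5.29 and 6.75 CPM at GV. Every MII library of both genes was below every GV library. The log2 fold changes of Yars2 were -3.78 (SE 0.566, adjusted p = 0.000141) and -3.63 (SE 0.577, adjusted p = 0.000219), which were -4.39 without sex-converted MII replicate 2 and -4.38 without native MII replicate 2.

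The other mitochondrial genes lower in both lines were Aars2 (alanine, -3.80 and -2.53), Cars2 (cysteine, -3.19 and -2.32), Ears2 (glutamate, -3.23 and -1.76), Tars2 (threonine, -2.48 and -2.24) and Vars2 (valine, -1.75 and -1.36). The native value of Aars2 was -1.93 without native GV replicate 2 and that of Vars2 was -1.96 without native MII replicate 1. The call of Vars2 there was lost without native MII replicate 2 (adjusted p = 0.0724). The native call of Ears2 was lost without native GV replicate 2 (-0.779, adjusted p = 0.346) and without either native MII replicate (adjusted p = 0.0956 and 0.0922). Pars2, for proline, was called in the sex-converted line, at -1.82, and not in the native line, at -1.47. The sex-converted value was -2.68 without sex-converted MII replicate 2, and its call was lost without sex-converted MII replicate 1 or without sex-converted GV replicate 1. The native value was called lower without native MII replicate 1 (-2.72, adjusted p = 0.0245), without native GV replicate 1 (-1.95, adjusted p = 0.032), with no filter on low counts (-1.57, adjusted p = 0.0148) and with library totals alone (-2.39, adjusted p = 0.0101).

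Of the 5 members higher at MII in both lines, Mars2 moved most. Mars2 charges the single methionine tRNA of mitochondria and lies on chromosome 1 from 55237177 to 55248470, plus strand. It had 7.44 and 5.61 CPM in sex-converted MII eggs, against 1.79 and 0.926 CPM in sex-converted GV oocytes. Native eggs had 6.40 and 12.7 CPM at MII, against 0.668 and 2.11 CPM at GV. All 4 MII libraries were above all 4 GV libraries, and the level was 4.82-fold higher at MII in the sex-converted line (log2 fold change 2.27, SE 0.583, adjusted p = 0.00531) and 6.96-fold higher in the native line (2.80, SE 0.59, adjusted p = 0.00156). The native value was 3.83 without native GV replicate 2, 2.21 without native GV replicate 1 and 2.2 without native MII replicate 2. Scaled by library totals alone, Mars2 was still called in the native line and had 1.33 (adjusted p = 0.0723) in the sex-converted line.

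Lars2, the mitochondrial leucine enzyme (chromosome 9 from 123366927 to 123462666, plus strand), had 53.0 and 55.3 CPM in sex-converted MII eggs, against 35.8 and 20.3 CPM in sex-converted GV oocytes. In native oocytes it had 55.1 and 62.5 CPM at MII, against 16.4 and 23.4 CPM at GV. Its log2 fold changes were 0.949 (SE 0.293, adjusted p = 0.0146) and 1.57 (SE 0.299, adjusted p = 0.000796). Fars2, the single-chain phenylalanine enzyme of mitochondria (chromosome 13 from 36117412 to 36726280, plus strand), had 84.1 and 93.0 CPM in sex-converted MII eggs, against 52.4 and 49.9 CPM in sex-converted GV oocytes. Native MII eggs had 108.8 and 88.9 CPM of Fars2, against 46.6 and 61.0 CPM in native GV oocytes. All MII libraries of both genes stood above all GV libraries. The log2 fold changes of Fars2 were 0.791 (SE 0.216, adjusted p = 0.00759) and 0.878 (SE 0.217, adjusted p = 0.00419).

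The cytosolic genes higher in both lines were Tars and Wars. Tars, for threonine (chromosome 15 from 11382301 to 11399665, minus strand), had 63.8 and 64.0 CPM in sex-converted MII eggs, against 35.4 and 38.1 CPM in sex-converted GV oocytes. In native oocytes Tars had 67.4 and 61.0 CPM at MII, against 44.1 and 35.2 CPM at GV, and its log2 fold changes were 0.798 (SE 0.212, adjusted p = 0.00652) and 0.694 (SE 0.212, adjusted p = 0.0138). Wars, for tryptophan (chromosome 12 from 108860030 to 108894174, minus strand), had 93.5 and 98.8 CPM in sex-converted MII eggs, against 62.4 and 61.4 CPM in sex-converted GV oocytes. Native MII eggs had 98.3 and 95.2 CPM of Wars, against 60.0 and 66.6 CPM in native GV oocytes, and its log2 fold changes were 0.636 (SE 0.187, adjusted p = 0.0114) and 0.612 (SE 0.187, adjusted p = 0.0139). The replicates of both genes were tightly grouped and the stages did not overlap. These rises depend on the scaling, since with library totals alone the values were -0.137 and -0.215 for Tars, -0.301 and -0.301 for Wars, -0.146 and -0.038 for Fars2, and 0.00432 and 0.652, not called, for Lars2. The rises also lost calls when a library was left out, most in each line without sex-converted MII replicate 2 and without native MII replicate 1. The granulosa and cumulus sum was 121.9 CPM in sex-converted MII replicate 2 and 126.2 CPM in replicate 1. Native MII replicate 1 had the highest sum, 165.9 CPM. The part of those cells in the rises was not tested. Without a filter on low counts the native calls of Tars (adjusted p = 0.0656) and Wars (adjusted p = 0.092) were lost too. Tars lost its native call without native GV replicate 2 (adjusted p = 0.0928) or native MII replicate 1 (adjusted p = 0.0824). Wars lost its sex-converted call without sex-converted GV replicate 1 (adjusted p = 0.0506) or sex-converted MII replicate 2 (adjusted p = 0.0723), and its native call without native GV replicate 1, native MII replicate 1 or native MII replicate 2 (adjusted p = 0.0585, 0.0728 and 0.0633). Fars2 lost its sex-converted call without sex-converted MII replicate 2 (adjusted p = 0.0552), and Lars2 without sex-converted GV replicate 2 (adjusted p = 0.114) or sex-converted MII replicate 2 (adjusted p = 0.0602).

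Iars2, the mitochondrial isoleucine enzyme, was called higher in the native line at 1.03 (adjusted p = 0.0292) and had 0.863 in the sex-converted line (adjusted p = 0.054). Its 4 MII libraries had 6.83 to 9.32 CPM, against 2.74 to 5.01 CPM in the 4 GV libraries. The native call was lost without native GV replicate 2 (adjusted p = 0.173) or either native MII replicate (adjusted p = 0.0981 and 0.0722), and the sex-converted value was called without either native GV replicate (adjusted p = 0.0461 and 0.0485). With DESeq2 or other (RLE) size factors it was called in both lines, and without a filter on low counts in neither (adjusted p = 0.0909 in the native line). Its neighbour Rab3gap2, on the opposite strand, overlaps it by 2034 bases. Wars2 (tryptophan, 0.398 and 0.470) and Nars2 (asparagine, -0.0706 and 0.618) were called in neither line, and Nars2, at 0.347 to 2.38 CPM, had 95% intervals of -1.99 to 1.85 and -1.44 to 2.67, too wide to place it. The 2 members below the count filter were the cytosolic tyrosine gene Yars and the mitochondrial histidine gene Hars2. Yars had 6 reads in sex-converted MII eggs against 24 at GV, and 7 in native MII eggs against 4 at GV. Hars2 had at most 7 reads in any group, so no change in either was detectable at this depth.

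For 14 amino acids an enzyme of each compartment was tested. Methionine and threonine had partners called in opposite directions in both lines. For methionine the mitochondrial gene was higher and the cytosolic gene lower at MII, and the difference between their log2 fold changes (Mars2 minus Mars) was 6.5 in the sex-converted line and 7.21 in the native line. For threonine it was the reverse, with Tars2 minus Tars at -3.28 and -2.93. Tars2 (chromosome 3 from 95739976 to 95760206, minus strand) had 1.31 and 1.33 CPM in sex-converted MII eggs, against 9.54 and 5.36 CPM in sex-converted GV oocytes, and 1.53 and 1.5 CPM in native MII eggs, against 5.85 and 8.58 CPM in native GV oocytes (adjusted p = 0.000597 and 0.00112). For serine, arginine, alanine, cysteine, valine and glutamate (Ears2 with Eprs) both partners were lower in both lines. Isoleucine had opposite calls in the native line and phenylalanine (Fars2 with Farsa) in the sex-converted line, and none of these 4 genes was called for a difference between the lines. The rise of Mars2 in the native line held with library totals alone, while that of Tars did not.

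**Figure D3:**
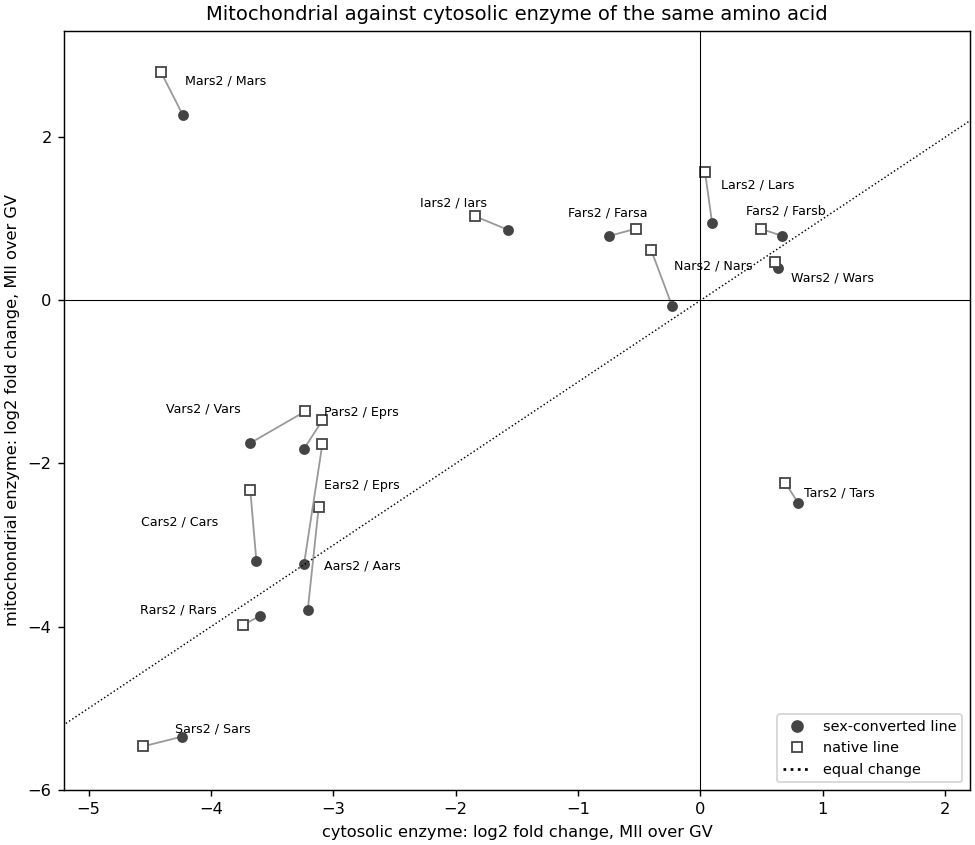
Log2 fold change of MII over GV for the mitochondrial enzyme (y axis) against the cytosolic enzyme of the same amino acid (x axis), with filled circles for the sex-converted and open squares for the native line joined by a line and the diagonal marking equal change. Mars2 and Mars lie alone at the upper left, Tars2 and Tars alone at the lower right, and Sars2 with Sars at the lower left.

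Levels between genes were compared as CPM per kilobase of merged exons. That length joins all annotated exons of a gene (2620 bases for Farsb, 4538 for Farsa and 6572 for Qars), and the length of the mRNA present is not known. Ranks and shares depend on it, and by CPM alone Qars (265.7 to 295.3 CPM) was above Farsb at GV. At MII the 3 highest were Farsb, Nars and Wars in each of the 4 libraries and together made 50.8% to 54.4% of the per-kilobase total of the 36 genes. At GV the 3 highest were Rars, Iars and Farsb, with 33.4% to 42.2%. Farsb alone held 27.2% to 32.6% at MII and 11.0% to 15.3% at GV. Mean Farsb levels were 81.4 CPM per kilobase in sex-converted MII eggs and 51.2 in sex-converted GV oocytes, and 82.3 in native MII eggs and 58.5 in native GV oocytes. Its partner subunit Farsa had 7.48 CPM per kilobase in sex-converted MII eggs and 12.5 in sex-converted GV oocytes, and 8.17 in native MII eggs and 11.8 in native GV oocytes. The order of the 36 genes at MII and at GV correlated across genes with Spearman's rho of 0.769 (sex-converted) and 0.775 (native), and between the lines with 0.985 at MII and 0.995 at GV. These are descriptions over 36 genes of shared libraries, and genes are not replicates.

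**Figure D4:**
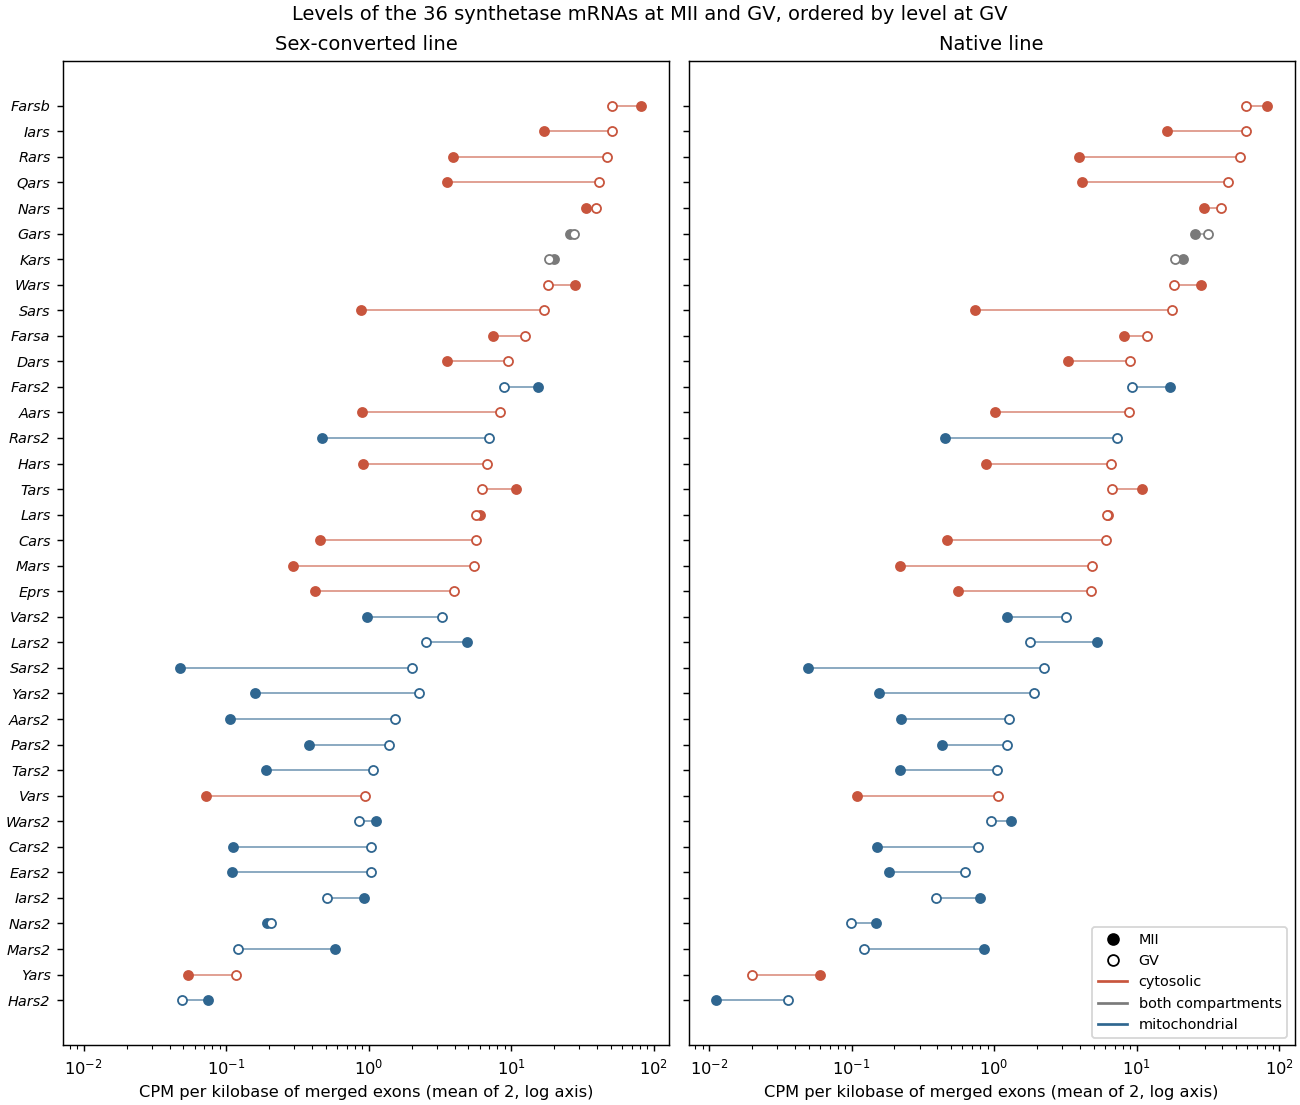
Mean CPM per kilobase of merged exons (x axis, log scale) of the 36 synthetase mRNAs (y axis, ordered by GV level), with filled points for MII and open points for GV. Farsb leads at MII in both lines at 81.4 and 82.3, and the low end holds Sars2, which stood at 0.0474 and 0.0493 at MII.

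Summed over all members the synthetase mRNAs had 1055 and 1149 CPM in sex-converted MII eggs, against 1869 and 1896 CPM in sex-converted GV oocytes. Native MII eggs had 1199 and 1042 CPM, against 2054 and 1963 CPM in native GV oocytes. The cytosolic sum was lower in each MII library (684.8 to 811.7 CPM) than in any GV library (1517 to 1723 CPM). The mitochondrial sum overlapped, at 170.5 to 204.0 CPM at MII and 144.7 to 196.5 CPM at GV. That overlap rests on the TMM factors, which were 0.714 to 0.733 at MII and 1.33 to 1.43 at GV. With library totals alone each MII mitochondrial sum falls below each GV sum. The mitochondrial enzymes took 16.0% to 18.4% of synthetase reads at MII and 7.05% to 10.5% at GV, shares that do not depend on the scaling of a library. Fars2 and Lars2 alone made most of the mitochondrial sum at MII.

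**Figure D5:**
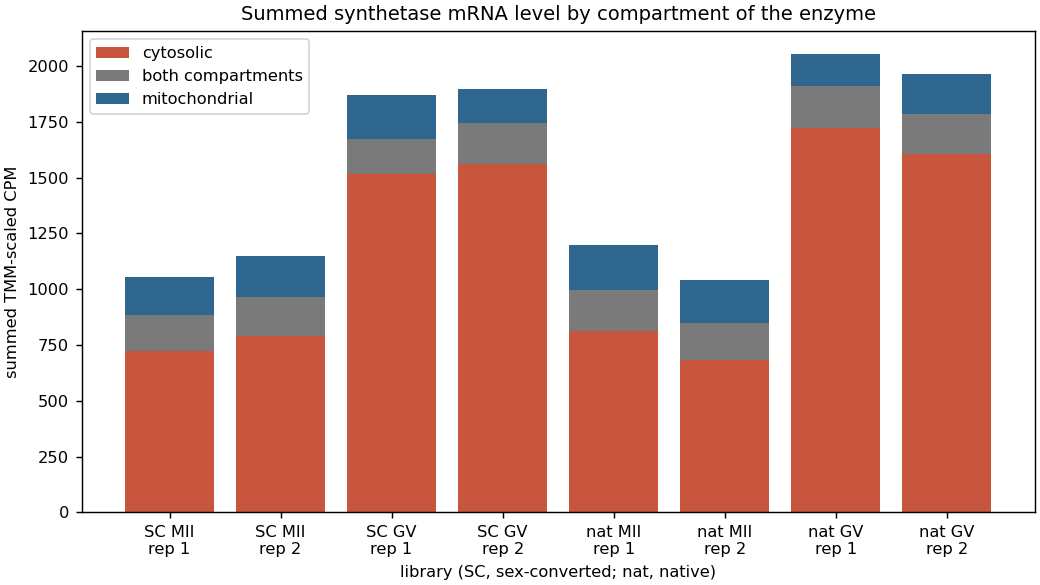
Summed CPM of the cytosolic, dual and mitochondrial synthetase mRNAs (stacked, y axis from 0) in each of the 8 libraries (x axis). The 4 MII bars reach 1042 to 1199 CPM and the 4 GV bars 1869 to 2054 CPM. With the TMM scaling used here the mitochondrial block is of like height in all.

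The lines were set against each other at each stage. At MII and at GV none of the 34 members was called between sex-converted and native oocytes, against 0.0134% of all tested genes at each stage, and none was called for a difference between the lines in the maturation change, against 0% of all tested genes. At an unadjusted p under 0.05 there were 0 members in each of the 3 tests by edgeR's quasi-likelihood test. Of all 14929 tested genes 549 (MII), 319 (GV) and 329 (change) were under it. Those shares are so small that 0 of 34 does not set the members apart. DESeq2 also called 0 members. A missed call does not show equal levels. The 95% interval of the sex-converted over native difference lay within 2-fold for 17 of 34 members at MII and for 22 at GV. For the cytosolic enzymes it did so for 13 of 17 at MII and 15 of 17 at GV, and for the mitochondrial ones for 2 of 15 and 5 of 15. The largest differences at each stage were of low genes, -1.03 for Aars2 at MII (95% interval -2.39 to 0.332) and 1.04 for Nars2 at GV (-0.912 to 2.99). Ears2 had the largest difference in change, -1.48 (-3.54 to 0.585).

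By the 2 structural classes of catalytic domain, class I members were lower in 11 of 17 in both lines and higher in 3 (sex-converted) and 4 (native). Class II members were lower in 9 of 16 and higher in 3 in the sex-converted line, and lower in 7 and higher in 2 in the native line. Of all tested genes 36.2% were lower and 29.3% higher in the sex-converted line and 35.7% and 29.6% in the native line, so the native class II share, 43.8% lower, was near that of all genes. The split by class was not tested.

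Partners of the synthetases were read from lists set beside the members, and their counts stand against 36.2% lower and 29.3% higher of all tested genes in the sex-converted line and 35.7% and 29.6% in the native line. All 3 scaffold proteins of the multisynthetase complex were lower in both lines, with log2 fold changes of -3.98 and -4.66 for Aimp1, -4.45 and -3.99 for Aimp2, and -1.09 and -1.83 for Eef1e1. Aimp2 had 0.547 and 1.05 CPM in sex-converted MII eggs, against 13.7 and 21.9 CPM in sex-converted GV oocytes. Among the 4 helpers of mitochondrial charging, which make glutaminyl-tRNA by amidation or formylate methionyl-tRNA, 1 was higher and 1 lower in the sex-converted line, and 1 higher and 2 lower in the native line. Gatb and Gatc, subunits of 1 amidotransferase, went opposite ways, at 2.33 and 1.65 for Gatb and -3.17 and -3.07 for Gatc. Mtfmt, the formyltransferase that acts after Mars2, was at -0.689, not called, in the sex-converted line and fell in the native line, at -0.873. Tarsl2, a further threonine enzyme that is not among the 36 members, was called higher in the sex-converted line at 0.970 and had 0.464, not called, in the native line. The difference between these changes was 0.506 (SE 0.534, adjusted p = 1).

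Of 6 genes for selenocysteine, an amino acid made on its own tRNA after serine is attached, 4 were higher and 2 lower in both lines, where 26.9% and 32% of all tested genes were. Sephs2, which makes the selenium donor, had 256.8 and 335.8 CPM in sex-converted MII eggs, against 53.9 and 46.9 CPM in sex-converted GV oocytes. In native oocytes Sephs2 had 312.8 and 307.1 CPM at MII, against 54.9 and 57.3 CPM at GV. The most changed of the higher ones were Sephs2 (2.56 and 2.47), its relative Sephs1 (1.97 and 2.30) and the decoding factor Secisbp2 (1.67 and 1.94). The kinase Pstk, which acts on the seryl-tRNA (-3.29 and -3.32), and the elongation factor Eefsec (-6.16 and -5.23) were the lower ones. Of 6 elongation factors that deliver charged tRNA or recycle the factor that does, 4 were lower in both lines. The cytosolic factors Eef1a1 (-4.20 and -3.72) and Eef1d (-4.90 and -4.51) and the mitochondrial Tufm (-5.11 and -3.40) were among them, while Tsfm, which recycles Tufm, was higher (2.11 and 2.07). Of 4 tested genes for proofreading and peptidyl-tRNA release, Ptrh2 alone was called, lower at -2.25 and -2.10.

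Of 19 tested genes of tRNA maturation and export, 14 were lower and 3 higher in the sex-converted line and 13 lower and 4 higher in the native line, against 36.2% lower and 29.3% higher (sex-converted) and 35.7% and 29.6% (native) of all tested genes. The subunits Pop1 (-5.30 and -5.49), Rpp38 (-4.80 and -4.78) and Rpp40 (-4.45 and -5.33) of ribonuclease P, which trims the 5' end, fell most. Trnt1, which adds the CCA end that synthetases charge, was higher (1.33 and 1.23), as were the splicing endonuclease subunit Tsen34 (1.67 and 1.69) and Trmt10c of mitochondrial ribonuclease P (1.03 and 1.10). Of 21 tested genes of the amino acid response, in which the factor Atf4 induces uptake, synthesis and many cytosolic synthetase genes, 10 were higher and 8 lower in the sex-converted line and 10 were higher and 5 lower in the native line. The shares of all tested genes given above were 29.3% higher and 36.2% lower, and 29.6% and 35.7%, so the lower count of the sex-converted line was near that of all genes. Atf4 itself, named because the list is built on it, was lower (-2.15 and -2.31), as were the factor Ddit3, the serine synthesis enzyme Phgdh (-3.19 and -3.22) and Chac1, which breaks down glutathione (-3.54 and -2.79). The cystine transporter Slc7a11 was higher (2.91 and 3.02), with 970.8 and 917.6 CPM in sex-converted MII eggs against 125.5 and 126.0 CPM in sex-converted GV oocytes. Cth, which makes cysteine, was also higher (2.17 and 2.36). Nupr1 was higher as well (5.01 and 6.19), with its top value, 35.3 CPM, in native MII replicate 1, the library with the highest granulosa and cumulus sum; the part of those cells in it was not tested.

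Maturing oocytes lengthen the poly(A) tail of mRNAs that hold the cytoplasmic polyadenylation element, a U-rich motif near the polyadenylation signal. The last 100 bases of the 3' end annotated by GENCODE M21 (GRCm38) were searched on the mRNA strand for TTTTAT or TTTTAAT in the principal transcript, which could be done for 30 tested members. Among all 11817 tested coding genes with such an end, 19.9% held the element, 33.6% of those higher in both lines and 10.3% of those lower in both lines. Of the members, 1 of 5 higher in both lines held it (Mars2), as did 2 of 15 lower in both lines (Sars and Aars) and 3 of 10 of the rest (Farsa, Kars and Lars). Shown 5′ to 3′ as DNA are the sites of Mars2, which rose most, of Kars and Farsa, and of Sars and Aars, which fell, with the element and any AATAAA signal in capitals. In Farsa they overlap.
Mars2: agtattTTTTATatatgctatagatttgtc
Kars: agttctTTTTATtcctcgttaccaAATAAA
Farsa: cagctgTTTTAATAAAgtgggcacattccc
Sars: catgaaTTTTATggttgggggccaccacaa
Aars: aaactaTTTTATgactggaaatacatctgt
The sites lie in the last exon at chr1:55248398-55248427 (Mars2, plus strand), chr8:111993458-111993487 (Kars, minus), chr8:84869205-84869234 (Farsa, plus), chr3:108424912-108424941 (Sars, minus) and chr8:111057585-111057614 (Aars, plus) in GRCm38. The element of Kars and that of Farsa begin 39 and 47 bases from the annotated end, closer to it than those of Mars2 (67), Sars (71) and Aars (74). A polyadenylation signal (AATAAA or ATTAAA) was found in the window of all 5 members higher in both lines and in 9 of 15 lower in both lines, against 88.7% and 74.1% of all tested coding genes in those classes. Sars and Aars held the element and no such signal.

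The promoters of synthetase genes were searched for the amino acid response element, the core TGATGNAA on either strand, through which Atf4 and its partners act, in RefSeq promoters (GRCm38.p6, 250 bases before to 50 after the start). It was in 3.97% of 32851 promoters, and at least 1 promoter held it in 4.51% of genes. Of the 27 members matched to a promoter, 5 held it: 4 of 11 cytosolic genes (Aars, Iars, Tars and Yars), 1 of the 2 dual genes (Gars) and 0 of 14 mitochondrial genes. A site of each is printed 5′ to 3′ along the gene with the core in capitals, to show that those of Aars, Iars, Tars and Gars hold it on the opposite strand and that of Yars on the gene's own strand.
Aars: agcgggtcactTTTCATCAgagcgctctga
Iars: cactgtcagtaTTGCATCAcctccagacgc
Tars: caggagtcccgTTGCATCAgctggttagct
Gars: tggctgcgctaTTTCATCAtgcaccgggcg
Yars: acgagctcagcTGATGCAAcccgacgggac
They lie at chr8:111033840-111033869 (Aars, plus strand), chr13:49682126-49682155 (Iars, plus), chr15:11399655-11399684 (Tars, minus), chr6:55037960-55037989 (Gars, plus) and chr4:129189895-129189924 (Yars, plus). Of the 4 tested genes among them, Aars and Iars were lower at MII in both lines, Tars was higher with TMM scaling (not with library totals) and Gars was not called. A match is a description of the letters in this window.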

How the data were processed

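The deposited table holds the authors' raw read counts for 55385 genes in 8 libraries. Per the submitters' processing notes, the tools include Trimmomatic 0.38, HISAT2 2.1.0, featureCounts 2.0.0 and DESeq2 1.30.1, with genome build mm10. No source used here states the counting strand, how multiply matching reads were treated or which annotation was counted, so reads of overlapping genes may be shared. Besides the overlaps named above, those of called members with an expressed gene on the opposite strand include Cars2 with Naxd (984 bases) and Wars with Wdr25 (544 bases). Ears2 overlaps Ubfd1 by 89 bases and Fars2 overlaps Lyrm4 by 115 bases in the same way. Symbols were taken from GENCODE M21 (GRCm38) by gene identifier. Of the genes, 55144 matched and 241, holding 0.00326% of reads, did not.

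Counts were tested in edgeR 4.0.16 (R 4.3.3) by the quasi-likelihood method with TMM factors and filterByExpr (minimum count 10), 1 fit over all 8 libraries with a coefficient per group and 4 residual degrees of freedom, adjusting by Benjamini-Hochberg over the 14929 genes tested. All adjusted p-values are from this two-sided test, unless DESeq2 1.42.0 is named. Intervals are 95% and cover spread between libraries, except counting intervals where named. The common biological coefficient of variation was 0.243. Scripts were tested on simulated data. TMM measures change relative to other mRNAs, and mRNA per oocyte is not measured. The labels call the libraries biological duplicates. Alternatives were other scalings, filters, a replicate block, left-out libraries and DESeq2. The members and lists were chosen with earlier results of these data known. Named in full were the 6 called members with the largest change in each direction called in both lines (5 upward), partners called in opposite directions in both lines, and Farsa, Farsb, Eprs, Kars and Gars.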

Additional observations from a re-analysis of the deposited data

How the results depend on the processing

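Counts of lower members stayed within 1.5 times of 21 (sex-converted) and 19 (native) under each alternative run, with 17 to 25 over both lines, and counts between lines and for the difference in change were 0 under each. Counts of higher members did not hold. Scaled by library totals alone they were 0 (sex-converted) and 1 (native) against 6 each, without a filter on low counts the native count was 3, and over left-out libraries they were 2 to 7 and 3 to 6. With library totals alone the sign turned in the sex-converted line for Farsb (-0.265), Lars (-0.844), Tars (-0.137), Wars (-0.301), Kars (-0.82), Fars2 (-0.146), Iars2 (-0.0747) and Wars2 (-0.534). In the native line it turned for Farsb (-0.415), Lars (-0.876), Tars (-0.215), Wars (-0.301), Kars (-0.711), Fars2 (-0.038), Nars2 (-0.289) and Wars2 (-0.434). Between the 2 scalings all genes shift together, as their medians show. Because mRNA per oocyte was not measured, these data cannot tell which scaling is right.

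The genes with the least change crossed 0 elsewhere. Lars had -0.00915 and -0.0372 with a mean of at least 50 reads and -0.0526 (native) with no filter, and ran over left-out libraries from -0.0541 to 0.234 and from -0.103 to 0.222. Gars (sex-converted) ran from -0.217 to 0.0591, and Nars2 from -0.778 to 1.46 and from -0.974 to 1.29; the cause was not tested. With the replicate block Nars2 was at 0.259 (sex-converted), and the counts stayed at 6 higher and 21 lower, and 6 higher and 19 lower. The labels do not say that a replicate number marks a shared batch, and the main fit took the libraries as independent. Deviations of same-numbered libraries correlated at -0.747 between the lines at GV and 0.282 between the lines at MII. Between stages they correlated at 0.12 and -0.0398 in the sex-converted and native lines. These correlations do not settle whether libraries were paired. Pairing the GV libraries crosswise, an alternative added after seeing the data, called 0 members between the lines at GV. At this depth the genes at MII levels of a few reads, such as Sars2, have wide intervals.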
